A study of Mus musculus with 15 samples.

Results

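Cortex of 5XFAD mice was compared between 12 and 3 months of age across all measured genes. The comparison uses the 3 libraries titled as 12-month 5XFAD and the 2 titled as 3-month 5XFAD, 5 of the 15 libraries of the series. 5XFAD mice carry human transgenes, APP among them, with mutations that cause familial Alzheimer's disease, driven by elements of the neuronal Thy1 promoter, and they form amyloid plaques in the cortex from early adulthood. The labels give the strain as C57BL/6J and the tissue as cortex for all groups used here, and they name no drug or other treatment. The series also holds 3 5XFAD libraries at 6 months, which were used to place the change in time. Non-transgenic controls (WT) of the same strain, with 2 libraries at 3, 3 at 6 and 2 at 12 months, were used to set the age change of 5XFAD beside that of mice without the transgenes. The labels do not state whether each library comes from its own animal, and the p-values reflect library-to-library spread, which may in part be technical.

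As background, microglia, the resident macrophages of the brain, gather around amyloid plaques, where they lower part of their resting gene set and switch on a programme for phagocytosis, lipid handling and lysosomal breakdown that depends on the receptor TREM2. Astrocytes near plaques become reactive and express more of the filament protein GFAP. Complement proteins, interferon-stimulated genes and the MHC proteins that present antigen to T cells are also known to accumulate in plaque-bearing cortex, and complement has been tied to the loss of synapses.

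Total counts per library, in M (1e6 counts), were 202.8 M and 212.9 M at 3 months and 155.1 M to 190.3 M at 12 months. Values are CPM, counts per 1e6 counts of the TMM-scaled library, given in the order of the replicate numbers. A gene is said to be called, to rise or to fall where edgeR's quasi-likelihood test gave a Benjamini-Hochberg adjusted p below 0.05 over the 21555 genes tested. Markers of cortical excitatory neurons, inhibitory neurons, astrocytes, oligodendrocytes, microglia and endothelium were present in all 5 libraries. The striatal dopamine receptor gene Drd2 was at 1.19 and 2.07 CPM at 3 months and at 0.868, 1.25 and 35.4 CPM at 12 months, so 12-month replicate 3 stood apart in striatal transcripts. It is 1 of 4 libraries of the series called here rich in neighbouring tissue, from striatal Drd2 or choroid plexus Ttr; the others are 6-month 5XFAD replicates 1 and 2 and 3-month WT replicate 1. Xist and Y-linked genes read replicate 1 of each age as male and the others as female.

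Thy1, whose promoter elements drive the transgenes, and App, the mouse counterpart of a transgene, did not pass the test with age. Thy1 was at 2051 and 2414 CPM at 3 months and 2616, 2475 and 2609 CPM at 12 months, a log2 fold change of 0.20 ± 0.12 (SE) with an edgeR adjusted p of 0.445. App had a log2 fold change of 0.20 ± 0.10 (SE). Of the 20 listed genes that process the amyloid precursor, such as secretase subunits, 0 were called by edgeR. At an unadjusted p under 0.05 there were 4, beside 16.4% of all genes tested. DESeq2 called 1 of the 20 higher, beside 1073 of all 21555 genes. The list's median log2 fold change was 0.09, beside 0.02 over all genes tested. How many reads of the human transgenes were counted under the mouse genes was not tested.

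Between 3 and 12 months edgeR called 407 of 21555 genes, 1.89% of those tested. They were unevenly divided, with 355 higher (1.65%) and 52 lower (0.241%) at 12 months. The increases were large: 235 were at least 2-fold and 86 at least 4-fold, while 10 of the 52 decreases reached 2-fold. The median log2 fold change was 1.27 for the genes that rose and -0.54 for those that fell. At an unadjusted p under 0.05 there were 3529 genes (16.4%), and DESeq2 called 1461. The number of calls moved when any of the 5 libraries was left out. It was 0 with 3-month replicate 1 left out (4001 genes at an unadjusted p under 0.05) and 0 with 3-month replicate 2 left out (2469 genes). It was 1 without 12-month replicate 2 and 13 without 12-month replicate 3. Without 12-month replicate 1 it rose to 833, with 379 of the 407 still called. A library left alone at 3 months was assumed to vary like the other groups.

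Among genes averaging 1 CPM or more over the 5 libraries, the 15 largest increases included Atp6v0d2, Ctse, Hcar2, C4b, Gfap and Serpina3n. Atp6v0d2, a subunit of the proton pump that acidifies lysosomes, was at 0.0250 and 0.00937 CPM at 3 months and 1.84, 2.62 and 4.43 CPM at 12 months. In WT it was listed at 0 in both 3-month libraries and at 0.0797 and 0.0384 CPM at 12 months, a log2 fold change of 6.3. The difference between the genotypes had an edgeR adjusted p of 0.959. In 5XFAD, 7 counts at 3 months stood against 1596 at 12 months, and the ratio was 181 (95% interval for counting error alone, 87.8 to 452). Ctse, the endosomal protease cathepsin E, went from 0.0948 and 0.0187 to 1.13, 2.09 and 3.11 CPM (37.1-fold, edgeR adjusted p = 0.0161). Hcar2, a receptor for niacin and ketone bodies that microglia express around plaques, went from 0.155 and 0.117 to 2.12, 3.14 and 3.14 CPM (20.5-fold, edgeR adjusted p = 0.0170). WT Hcar2 was at 0.0123 and 0 CPM and then at 0.0532 and 0.134 CPM, a log2 fold change of 3.8. The difference between the genotypes had an edgeR adjusted p of 0.962. WT values of Atp6v0d2 and Hcar2 lay near 0, where fold changes are imprecise, so this test cannot show whether the age changes were alike. In Atp6v0d2, Ctse and Hcar2 the lowest 5XFAD 12-month library lay more than 10-fold above the highest at 3 months. Tnfsf8, the ligand of the receptor CD30, and Ly9, a lymphocyte adhesion receptor of the SLAM family, rose 12.3-fold and 9.11-fold.

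The smallest p belonged to a gene of modest change. Rida, an enzyme that clears reactive imine intermediates of amino acid metabolism, was at 22.7 and 22.8 CPM at 3 months and at 46.6, 45.9 and 46.5 CPM at 12 months. Within each age the libraries were nearly level, and the groups were far apart against that spread. The log2 fold change was 1.03 ± 0.10 (SE) with an edgeR adjusted p of 0.00308. Rida was the 1 gene still called without 12-month replicate 2, and it was also called without 12-month replicate 3. It was named after its values had been seen.

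Genes of plaque-associated microglia rose together. Of the 27 listed disease-associated microglia genes that were tested, 19 were called higher and 0 lower, beside 1.65% of all genes called higher, and 26 had log2 fold changes above 0. The median of the list was 1.74, beside 0.02 over all genes. Of the receptors, Trem2, the lipid-sensing receptor of the programme, was at 19.0 and 19.2 CPM at 3 months and 66.7, 105 and 120.5 CPM at 12 months (5.10-fold, edgeR adjusted p = 0.0212). Its signalling adaptor Tyrobp went from 19.9 and 22.9 to 61.7, 96.0 and 117 CPM. Clec7a, a receptor for fungal glucans that marks plaque microglia, went from 3.45 and 2.61 to 19.9, 32.8 and 34.1 CPM (9.55-fold, edgeR adjusted p = 0.0207). Itgax, the integrin chain CD11c, was at 2.96 and 2.32 and then at 29.3, 52.3 and 54.0 CPM, which is 17.1-fold. For each of these receptors all 3 12-month libraries lay above both 3-month libraries, as for all 355 genes called higher. The groups did not overlap for 6508 of the 21555 genes tested. Replicate 1 was the lowest 12-month library for each of these receptors.

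Secreted and lysosomal members of the list behaved alike. Cst7, an inhibitor of lysosomal cathepsins, was at 6.52 and 5.78 CPM at 3 months and at 59.8, 82.6 and 97.0 CPM at 12 months, a log2 fold change of 3.70 ± 0.63 (SE). Gpnmb, a glycoprotein of lipid-laden macrophages, went from 2.00 and 2.98 to 25, 58.3 and 68.2 CPM (20.3-fold, edgeR adjusted p = 0.0299). Lgals3, the glycan-binding protein galectin-3, went from 0.339 and 0.379 to 1.68, 3.10 and 3.61 CPM. The chemokine genes Ccl3, Ccl4 and Ccl6 rose 6.2-, 5.31- and 3.65-fold, and Csf1, a growth factor for microglia, rose 2.47-fold. Among the members that were not called, Spp1, the secreted protein osteopontin, was at 9.35 and 8.53 CPM and then at 28.3, 65.4 and 86.9 CPM, with an edgeR adjusted p of 0.0753. Apoe, the main lipid carrier of the brain, was at 881 and 1192 CPM and then at 1250.1, 1659 and 1844 CPM (log2 fold change 0.61 ± 0.19 (SE), edgeR adjusted p = 0.112). Both have non-overlapping groups, as did 6508 of the 21555 genes tested, but differ widely among the 12-month libraries.

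Markers of resting microglia leaned the same way. Of 18 homeostatic microglia genes edgeR called 2 higher, Cst3 among them, and 0 lower, beside 1.65% of all genes called higher; 17 were above 0, and the median was 0.75. DESeq2 called 11 of them higher, beside 1073 of all 21555 genes. EdgeR called 6 higher without 12-month replicate 1, beside 694 of all 21503 genes. It called 5 without the libraries rich in neighbouring tissue, beside 295 of all 21859 genes. P2ry12, the purine receptor of resting processes, was at 41.4 and 42.5 CPM at 3 months and 49.1, 59.7 and 64.5 CPM at 12 months (edgeR adjusted p = 0.237). Tmem119 was at 20.7 and 28.2 and then at 23.5, 27.5 and 32.7 CPM, where the groups overlap. Cx3cr1, the fractalkine receptor, was at 61.5 and 67.6 and then at 108, 144 and 148 CPM and missed the threshold at an edgeR adjusted p of 0.0559. Summed over the list, the level was 1197 and 1355 CPM at 3 months and 1986, 2175 and 2474 CPM at 12 months. In RNA from whole cortex, more cells of a type and more RNA per cell cannot be told apart. None of the 9 perivascular macrophage genes and none of the 9 granulocyte and monocyte genes was called by edgeR, and DESeq2 called 0 in either list. At an unadjusted p under 0.05 by edgeR these lists held 2 and 1, beside 16.4% of all genes tested. The perivascular macrophage list had a median log2 fold change of -0.17, with 7 members negative and 2 positive, and a median of -0.81 in WT. Its most negative members were Lyve1 and Pf4, markers of macrophages at the brain's borders, at -0.81 ± 0.35 and -0.89 ± 0.35 (SE). The neutrophil gene S100a8 stayed below 0.2 CPM in all 5 libraries.

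**Figure D1:**
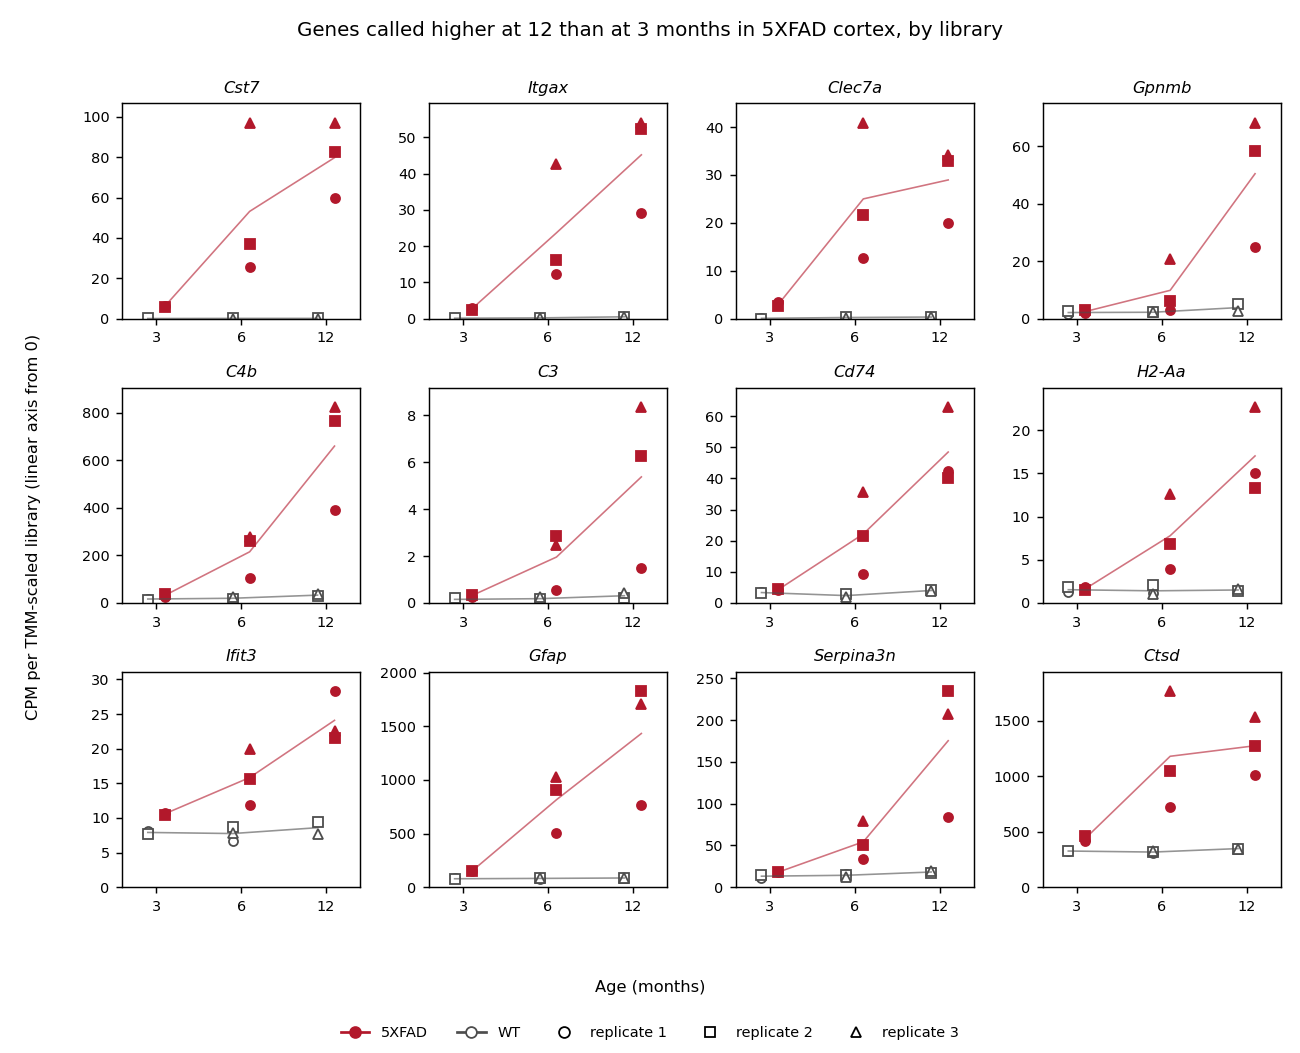
Normalised read counts of 12 genes that rose, in CPM on linear axes from 0, against age in months for 5XFAD (filled) and WT (open), with a marker shape per replicate and lines through the group means. The 5XFAD values at 12 months lie above those at 3 months in each panel, as for all 355 genes that rose. WT values stay near the bottom in most, with Cst7 at 0.283 CPM or less in WT at 3 and 12 months.

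Of 34 lysosomal genes, 13 were called higher and 0 lower, beside 1.65% of all genes called higher, and 30 had log2 fold changes above 0. The list's median was 0.62. Cathepsins, which break down protein in the lysosome, were among the members that rose. Ctsd, the aspartic protease cathepsin D, was at 419.5 and 459 CPM at 3 months and 1014, 1272 and 1538 CPM at 12 months, a log2 fold change of 1.54 ± 0.29 (SE) with an edgeR adjusted p of 0.0269. Ctss, a cysteine protease of phagocytes, went from 75.6 and 73.6 to 169.8, 269 and 294 CPM, and Ctsl and Ctsb rose 2.03- and 1.58-fold. Cd68, the macrophage lysosome glycoprotein, went from 12.2 and 13.5 to 40.2, 64.1 and 71.3 CPM. Lamp1 and Lamp2, membrane proteins of lysosomes in every cell type, rose less, 1.44-fold and 1.69-fold. Members without a change past the threshold included the lipid hydrolase genes Galc and Asah1, with log2 fold changes of 0.22 and 0.13. Of the 19 called disease-associated microglia genes, 5 are also among the 13 called here.

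Lysosomal genes are known to carry a sequence called the CLEAR element, bound by the transcription factor TFEB. The palindrome TCACGTGA was found in the promoter window of 5 of the 27 lysosomal genes with an entry in RefSeq's table (18.5%), among them Ctsd, and in 1.12% of 27025 genes. Of the 10 called members with an entry, 2 hold it. Promoter windows here are 300 bases around the annotated start from the RefSeq table for GRCm38.p6, searched on both strands. For the disease-associated microglia list, the letters GAGGAAGT of the macrophage factor PU.1 were in 1 of 23 windows (4.35%), in 0 of the 16 called, beside 3.69% of all genes, and in 0 of 13 homeostatic ones. A match describes the sequence, and was not tested as a binding site. The Ctsd window at chr7:142387778-142388077, minus strand, is shown because this gene carries the element and rose, with the match in capitals.
Ctsd: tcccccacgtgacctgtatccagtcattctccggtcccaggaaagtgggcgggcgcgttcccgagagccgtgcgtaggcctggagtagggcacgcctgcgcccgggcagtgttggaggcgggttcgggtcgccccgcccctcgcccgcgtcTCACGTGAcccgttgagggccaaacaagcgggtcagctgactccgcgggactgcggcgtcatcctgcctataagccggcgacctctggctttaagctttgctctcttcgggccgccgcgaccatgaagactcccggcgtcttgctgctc

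Some complement components and receptor genes rose, with C4b showing the largest change of the called members. C4b, which the classical pathway cleaves to tag surfaces, was at 25.9 and 37.5 CPM at 3 months and at 391, 766 and 823 CPM at 12 months. The lowest 12-month library was more than 10 times the highest at 3 months, and the other two 12-month libraries were about level. The log2 fold change was 4.38 ± 0.50 (SE) with an edgeR adjusted p of 0.0116. C4a, a near-identical copy whose reads may be shared with C4b, went from 4.30 and 7.61 to 17.7, 28.3 and 30.8 CPM. C3, the central component, went from 0.260 and 0.356 to 1.5, 6.28 and 8.35 CPM (17.4-fold), with a wide gap between replicate 1 and the others. C1qa, a chain of the recognition molecule C1q, was at 40.1 and 54.4 and then at 110.0, 163 and 200.5 CPM, and C1qb and C1qc rose as well, by 1.62 and 1.6 on the log2 scale. The receptor genes C3ar1 and Itgb2 rose 3.95- and 3.23-fold. In all 7 of 18 listed complement genes rose and 0 fell, beside 1.65% of all genes called higher, and the median was 0.81. The proteases C1ra, C1s1 and C2 and the regulators Cd55 and Cd59a did not pass the test. The receptor genes C5ar1 and Itgam did not pass either, at edgeR adjusted p of 0.079 and 0.132.

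Antigen presentation genes rose in 11 of 17 cases, beside 1.65% of all genes, and 0 fell; the median was 1.53. The 4 largest changes were in class II genes, which professional antigen-presenting cells use. Cd74, the invariant chain that guides class II molecules to the endosome, was at 4.08 and 4.55 CPM at 3 months and 42.3, 40.3 and 62.9 CPM at 12 months (11.2-fold, edgeR adjusted p = 0.0161). H2-Aa, a class II chain, went from 1.82 and 1.46 to 15.1, 13.3 and 22.6 CPM, which is 10.4-fold. The class II transactivator gene Ciita, in contrast, had a log2 fold change of -0.19 and an edgeR adjusted p of 0.671. Among class I genes, which all nucleated cells can use, H2-D1 went from 47.2 and 52.3 to 118, 149 and 163 CPM and B2m, the shared light chain, from 98.6 and 99.2 to 196, 236 and 258 CPM. Tap1 and Tap2, the subunits of the peptide pump that loads class I, both rose. Tap1 was at 2.90 and 3.45 CPM and then at 9.47, 9.17 and 9.04 CPM, and Tap2 at 4.75 and 5.58 and then at 10.5, 10.5 and 10.1 CPM. Their 12-month libraries were nearly level, and replicate 1 was not the low one. Nlrc5, the transactivator of class I genes, rose 4.26-fold. The H2 genes are similar in sequence, and reads shared between them leave their single values uncertain.

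A Y box, the letters CTGATTGG, is a known part of the control region of MHC genes. It lay in the promoter window of 8 of 13 antigen presentation genes with an entry (61.5%), in 5 of the 7 called members with an entry, and in 4.7% of 27025 genes. This motif was added after the values were seen. The windows of a class II gene, a class I gene and the pump gene are shown to let the element be compared across genes that rose together, with the match on either strand in capitals. They lie at chr17:34287774-34288073 on the minus strand for H2-Aa, and on the plus strand at chr17:35262844-35263143 for H2-D1 and chr17:34187306-34187605 for Tap1.
H2-Aa: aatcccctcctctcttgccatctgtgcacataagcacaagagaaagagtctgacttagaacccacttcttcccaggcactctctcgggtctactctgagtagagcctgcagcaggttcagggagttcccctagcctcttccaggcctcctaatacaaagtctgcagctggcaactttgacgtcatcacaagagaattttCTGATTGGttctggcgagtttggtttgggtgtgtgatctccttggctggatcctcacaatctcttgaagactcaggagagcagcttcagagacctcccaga
H2-D1: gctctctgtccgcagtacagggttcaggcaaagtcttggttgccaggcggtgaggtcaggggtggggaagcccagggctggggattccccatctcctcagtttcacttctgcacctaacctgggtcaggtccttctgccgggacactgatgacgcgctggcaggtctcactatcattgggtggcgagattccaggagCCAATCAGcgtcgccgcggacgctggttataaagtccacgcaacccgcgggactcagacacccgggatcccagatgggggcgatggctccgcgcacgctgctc
Tap1: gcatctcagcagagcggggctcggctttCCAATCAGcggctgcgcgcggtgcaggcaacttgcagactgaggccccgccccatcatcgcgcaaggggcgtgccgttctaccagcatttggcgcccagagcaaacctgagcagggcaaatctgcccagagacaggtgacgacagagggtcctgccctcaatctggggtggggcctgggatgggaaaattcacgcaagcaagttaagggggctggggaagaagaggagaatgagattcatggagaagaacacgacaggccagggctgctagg

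Interferon-stimulated genes shared a direction. All 30 tested members were above 0 on the log2 scale, as were 11383 of the 21555 genes tested. Of the 30, 11 were called higher and 0 lower, beside 1.65% of all genes called higher, and the median was 1.00. Ifit3, an antiviral protein that interferon induces, was at 10.7 and 10.5 CPM at 3 months and at 28.3, 21.5 and 22.5 CPM at 12 months, a log2 fold change of 1.18 ± 0.20 (SE) with an edgeR adjusted p of 0.0207. Its highest 12-month value was in replicate 1, the library that was lowest for most microglial genes. Reads may be shared with the near copy Ifit3b, which went from 7.23 and 6.73 to 18.9, 13.9 and 15.5 CPM. Gbp3, a guanylate-binding protein, was at 5.46 and 7.38 and then at 14.2, 14.0 and 13.6 CPM, and Xaf1 rose 2.29-fold. Isg15, Irf7 and the chemokine Cxcl10 did not pass, with edgeR adjusted p of 0.748, 0.159 and 0.123.

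The interferon-stimulated response element, searched as GAAA, any 2 bases and GAAA, is the site to which interferon-activated factors are known to bind. It was present in the window of 15 of 22 listed genes with an entry (68.2%), in 5 of the 7 called ones, and in 3.99% of 27025 genes. The windows of Ifit3 (chr19:34583279-34583578, plus strand) and Gbp3 (chr3:142559794-142560093, plus strand, 1 of its 2 entries) are shown because each gene rose and holds 2 matches, which overlap in Gbp3. The matches are in capitals and read as the reverse complement.
Ifit3: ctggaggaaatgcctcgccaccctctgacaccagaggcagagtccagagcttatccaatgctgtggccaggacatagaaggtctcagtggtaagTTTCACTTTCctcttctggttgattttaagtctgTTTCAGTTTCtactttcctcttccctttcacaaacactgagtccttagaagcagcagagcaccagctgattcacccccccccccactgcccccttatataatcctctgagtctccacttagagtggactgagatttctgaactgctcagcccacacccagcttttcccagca
Gbp3: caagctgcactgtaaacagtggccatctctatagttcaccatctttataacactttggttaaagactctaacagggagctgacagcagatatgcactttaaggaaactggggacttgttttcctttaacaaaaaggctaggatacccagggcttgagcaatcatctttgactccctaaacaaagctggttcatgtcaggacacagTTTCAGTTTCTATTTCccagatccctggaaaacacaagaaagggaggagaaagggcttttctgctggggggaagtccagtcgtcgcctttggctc

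Of 19 T cell and B cell genes 2 were called higher and 0 lower, beside 1.65% of all genes called higher. The median was 1.98, and 15 had log2 fold changes above 0. Cd8a, the coreceptor of cytotoxic T cells, was at 0.0649 and 0.0656 CPM at 3 months and 0.276, 0.593 and 0.627 CPM at 12 months. Nkg7, a granule protein of cytotoxic cells, rested on 5 counts at 3 months and 155 at 12 months, and the ratio was 24.7 (95% interval for counting error alone, 10.3 to 77.0). Cd8b1, which missed the threshold, had 4 and 83 counts, a ratio of 16.5 (6.21 to 62.0). Cd3d, Cd3e and Cd3g, which define T cells, were at 0.449 CPM or less in all 5 libraries and were not called. Their log2 fold changes were 4.59 ± 1.4, 1.68 ± 0.94 and 3.1 ± 0.82 (SE). Cd4 was at 2.19, 0.937 and 12.6 CPM at 12 months, highest in the library rich in Drd2. It was 17.8 CPM in the other Drd2-rich library, 3-month WT replicate 1. With the libraries rich in neighbouring tissue left out, 0 members of the list were called. The red cell genes Hba-a1 and Alas2 had overlapping groups.

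Reactive astrocyte genes were called higher in 5 of 25 cases, beside 1.65% of all genes, and lower in 0, with a median of 1.00. DESeq2 called 12 higher, beside 1073 of all 21555 genes. Gfap was at 148 and 147 CPM at 3 months and 763, 1825 and 1713 CPM at 12 months, a log2 fold change of 3.28 ± 0.38 (SE) with an edgeR adjusted p of 0.0116. The 3-month libraries were level, and replicate 1 at 12 months was below the others. Serpina3n, a secreted protease inhibitor, went from 17.7 and 18.5 to 84.2, 234 and 208 CPM (9.68-fold), and Osmr, the receptor of oncostatin M, from 4.91 and 6.37 to 11.7, 24.7 and 23.3 CPM (3.53-fold). Ggta1 and Aspg rose 3.50- and 2.70-fold. Vim, Lcn2 and Cd44 were not called, at edgeR adjusted p of 0.0543, 0.0951 and 0.385. Astrocyte identity genes had a median of 0.1, and S100b was the 1 called of 18 (1.58-fold), beside 1.65% of all genes called higher. Aqp4, the water channel of astrocyte endfeet, was at 84.2 and 94.6 and then at 87.8, 176 and 171 CPM, with overlapping groups.

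Myelin genes had large fold changes that differed by tool in passing the test. All 20 were above 0 on the log2 scale, as were 11383 of the 21555 genes tested, and their median was 1.66. EdgeR called 3 higher, beside 1.65% of all genes: Opalin, a protein of mature oligodendrocytes, Trf, the iron carrier transferrin, and the lipocalin Apod. DESeq2 called all 20 higher, beside 1073 of all 21555 genes. Opalin went from 8.42 and 8.91 to 23.1, 37.2 and 42.0 CPM (3.94-fold) and Trf from 3.63 and 3.51 to 11.7, 20.3 and 26.3 CPM (5.44-fold). Mbp, which encodes the basic protein of myelin, was at 918 and 941 CPM at 3 months and 1764, 3723 and 3468 CPM at 12 months, with an edgeR adjusted p of 0.0903. Replicate 1 was the lowest 12-month library for all 20 genes. The summed level of the list was 2618 and 2494 CPM at 3 months and 4991, 9477 and 9731 CPM at 12 months, while the 4 WT libraries of these ages ran from 2248 to 5262 CPM. The count of called members was 16 without 12-month replicate 1, where 694 of all 21503 genes were called higher. It was 0 without the libraries rich in neighbouring tissue, where 295 of all 21859 genes were called higher. Of 12 precursor genes edgeR called 0, with 3 at an unadjusted p under 0.05, beside 16.4% of all genes tested. DESeq2 called 2 of the 12 higher. Olig1 and Olig2, transcription factors of the lineage, each had a log2 fold change of 0.67. How much white matter was taken with the cortex was not tested.

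**Figure D2:**
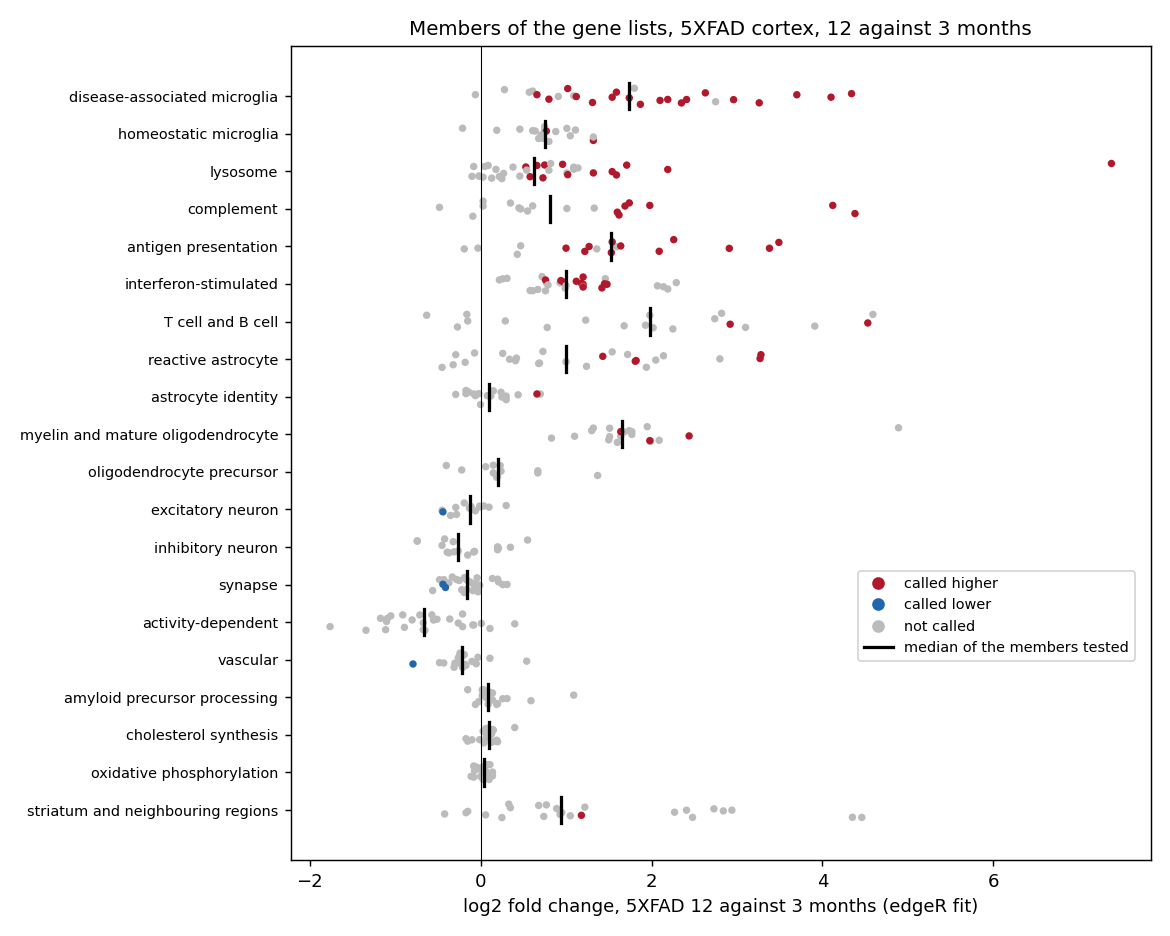
Log2 fold change of 5XFAD cortex at 12 against 3 months for the tested members of 20 gene lists, a point per gene coloured by whether edgeR called it, with a line at each list's median. Microglial, lysosomal, complement, antigen presentation and interferon lists lie to the right of 0, neuronal and synaptic lists slightly to the left, and the respiratory chain and cholesterol lists at 0.04 and 0.1.

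Genes that fell included Camk2a and Dlg4, which act at excitatory synapses. Camk2a, the kinase abundant in excitatory postsynaptic sites, was at 4802 and 4992 CPM at 3 months and 4061, 3332 and 3436 CPM at 12 months, a log2 fold change of -0.44 ± 0.10 (SE) with an edgeR adjusted p of 0.0458. Dlg4, the postsynaptic scaffold PSD-95, went from 771 and 928 to 681, 580.1 and 658 CPM. For both genes, as for all 52 called lower, the groups do not overlap, and replicate 1 lies nearest to the 3-month values. WT Camk2a was at 4532 and 4859.8 CPM at 3, 4033, 4105 and 4286 CPM at 6 and 4822 and 4320.0 CPM at 12 months, lowest at 6 months. Ddn, which encodes dendrin, and Ppp1r9b, which encodes spinophilin, were picked with their values in view and stand in no list; they were 1.53- and 1.39-fold lower.

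Neuronal lists leaned lower. Of 29 synaptic genes 2 were called lower, Dlg4 among them, and 0 higher, beside 0.241% of all genes called lower, and 24 had a negative log2 fold change with a median of -0.16. DESeq2 called 5 of them lower, beside 388 of all 21555 genes. EdgeR called 5 lower without 12-month replicate 1, beside 139 of all 21503 genes. It called 0 without the libraries rich in neighbouring tissue, beside 61 of all 21859 genes. Presynaptic Snap25 and Syt1 had log2 fold changes of -0.01 and -0.07. Excitatory neuron genes had a median of -0.12, with Camk2a the 1 called of 14, and Slc17a7, the vesicular glutamate transporter, was at 1440.5 and 1527 CPM and then at 1325, 1070.0 and 1089 CPM. Of 17 inhibitory neuron genes edgeR called 0, at a median of -0.26, and of 14 layer 5 genes 0, at -0.08. At an unadjusted p under 0.05 these lists held 4 and 2 lower, beside 16.4% of all genes in either direction. DESeq2 called 1 and 0 of them lower. Activity-dependent genes had a median of -0.66 with 23 of 26 negative and 0 called by edgeR (6 lower at an unadjusted p under 0.05; DESeq2 called 1 lower). Npas4 was at 123 and 116 CPM and then at 46.6, 43.8 and 15.7 CPM, and Fos at 104 and 87.7 and then at 43.5, 64.1 and 19.8 CPM. Replicate 3, the library rich in Drd2, was the lowest at 12 months for both. The list's median was -0.4 without the libraries rich in neighbouring tissue.

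Nptxr was among the largest decreases. This gene, the neuronal pentraxin receptor that gathers glutamate receptors, was at 28.1 and 30.6 CPM at 3 months and 16.3, 9.98 and 13.6 CPM at 12 months (2.20-fold lower, edgeR adjusted p = 0.0420). In WT, Nptxr was at 12.0 and 14.9 CPM at 3, 30.05, 32.7 and 37.3 CPM at 6 and 20.3 and 16.0 CPM at 12 months, so both genotypes were highest at 6 months by their means. Wnt4, a secreted signalling protein, went from 24.7 and 33.1 to 17.8, 10.9 and 13 CPM, and Bhlhe22, a transcription factor of cortical projection neurons, from 39.3 and 42.3 to 19.4, 21.6 and 26.7 CPM. Mfsd2a, which carries omega-3 lipids across the blood-brain barrier, went from 24.7 and 23.6 to 15.6, 13.3 and 13 CPM and Col4a2, a collagen of the vascular basement membrane, from 114 and 139.6 to 87.7, 72.9 and 92.8 CPM. The vascular list had 1 of 20 members called, Mfsd2a, with a median of -0.22, which was also -0.22 in WT. Col4a2 was the 1 called of 27 matrix genes, whose median was -0.08, beside -0.29 in WT. Of all genes tested, 0.241% were called lower. Nphs1 and Kirrel2, neighbouring genes that encode cell adhesion proteins, fell by 1.16 and 1.09 on the log2 scale. Adam19, a membrane metalloprotease, went from 29.2 and 27.6 to 18.1, 17.3 and 20.7 CPM and was the 1 decrease still called without 12-month replicate 3. Efcab6, Muc6, Opn3 and Lsm11 were 2.26-, 2.46-, 1.74- and 1.64-fold lower.

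**Figure D3:**
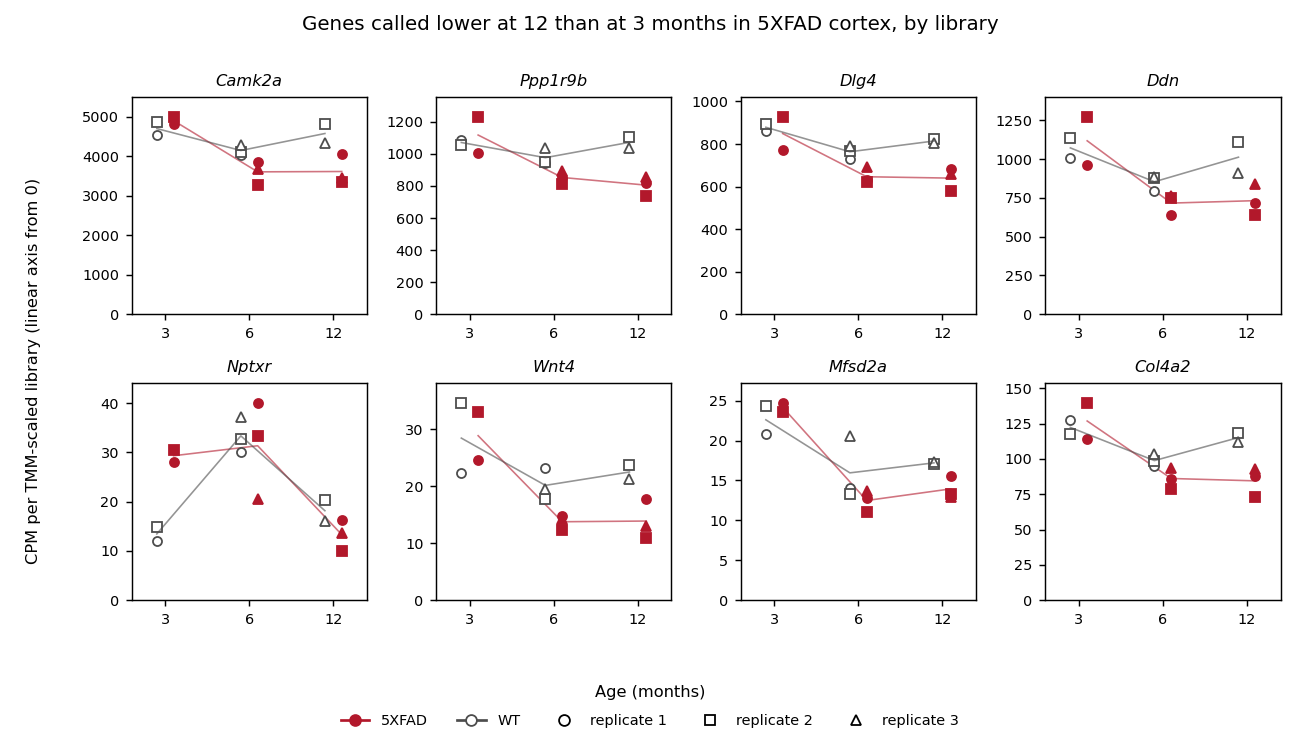
Normalised read counts of 8 genes that fell, in CPM on linear axes from 0, against age in months for 5XFAD (filled) and WT (open), with a marker shape per replicate and lines through the group means. The 3 5XFAD values at 12 months lie below both 3-month values in each panel, as for all 52 genes that fell. The Nptxr mean of 5XFAD at 6 months lies above that at 3 months.

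EdgeR called 0 genes of each of the lists for cholesterol synthesis (21 tested, median 0.1), oxidative phosphorylation (28, median 0.04), the unfolded protein response (18, median 0.07), heat shock (14, median -0.02) and the circadian clock (18, median -0.05). At an unadjusted p under 0.05 these held 2, 0, 3, 1 and 3 genes, and DESeq2 called 0, 0, 1, 1 and 2 higher and 0 lower in each. Of all genes tested, 16.4% had an unadjusted p under 0.05. DESeq2 called 1073 of all 21555 genes higher and 388 lower. EdgeR also called 0 of 19 proliferation genes, 12 glucocorticoid response genes and 13 senescence genes (4, 3 and 5 at an unadjusted p under 0.05; 0, 2 and 2 called higher and 0, 0 and 1 called lower by DESeq2). Among the last, Cdkn2a was at 0.0449 and 0.0421 and then at 0.148, 0.208 and 0.347 CPM, with an edgeR adjusted p of 0.0757. Of 30 mouse counterparts of Alzheimer risk genes, 4 rose (Trem2, Ctsb, Treml2 and Abi3) and 0 fell, beside 1.65% of all genes called higher. DESeq2 called 11 of the 30 higher, beside 1073 of all 21555 genes. Treml2, a receptor related to Trem2, went from 0.614 and 0.595 to 2.89, 4.03 and 4.43 CPM, while Bin1, Picalm and Sorl1, which act in endocytosis, had log2 fold changes of 0.03, 0.3 and 0.02. Of the plaque-associated protein genes Ctsd was the 1 called of 17, beside 1.65% of all genes called higher. Clu was at 622 and 755 and then at 764, 1079 and 1097 CPM. Striatal and neighbouring region genes had a median of 0.94, which was -0.23 without 12-month replicate 3. Prox1 was the 1 called of 24, beside 1.65% of all genes called higher.

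At 6 months most of these genes already lay between their 3- and 12-month levels. The 6-month 5XFAD mean was between the other means for 330 of the 355 genes that rose (93%) and 42 of the 52 that fell (80.8%), beside 37.8% of all genes tested. The place of the 6-month mean was expressed as a share of the change in log2 mean CPM from 3 to 12 months. For the genes that rose the median share was 75.8%, with quartiles of 64.1% and 85.9%. The 3- and 12-month libraries that chose the genes also set both ends of this scale, so the shares describe these genes and carry no test. The 3 chemokine genes named above had 6-month means past their 12-month means. Ccl4 was at 1.78, 2.31 and 3.69 CPM at 6 months and at 2.05, 1.32 and 2.18 CPM at 12 months, and the shares were 121.9% for Ccl4, 110.9% for Ccl6 and 109.2% for Ccl3.

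By list, the median share of the called members was 86.8% for lysosomal genes and 84.1% for disease-associated microglia genes, 78.4% for complement, 67.5% for antigen presentation and 64.4% for interferon-stimulated genes. It was lowest for reactive astrocyte genes, at 49.7% over 5 genes. Serpina3n was at 17.7 and 18.5 CPM at 3 months, 33.3, 50.1 and 79.7 CPM at 6 months and 84.2, 234 and 208 CPM at 12 months, a share of 48.4%. Gfap, at 506, 910.2 and 1031 CPM at 6 months, had a share of 75.2%. Within the microglial list Gpnmb (45.4%) and the growth factor Igf1 (44.6%) had the later change, and Apod (33%) among myelin genes. Nptxr was at 40.1, 33.4 and 20.6 CPM at 6 months, with a mean above that at 3 months, and Bhlhe22 had a share of 18.7%. The 6-month replicates 1 and 2 were rich in the choroid plexus transcript Ttr, at 581, 3535 and 5.14 CPM over the 3 libraries, and their part in these shares was not tested.

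**Figure D4:**
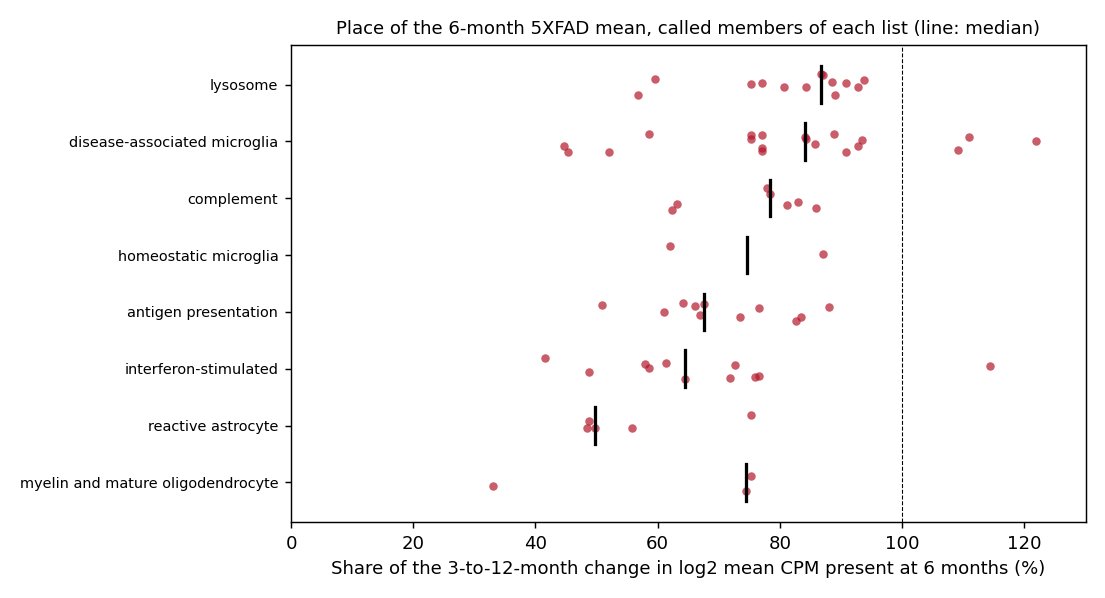
Share of the 3-to-12-month change in log2 mean CPM that the 6-month 5XFAD mean had reached, in percent, for the called members of 8 gene lists, a point per gene with a line at each list's median; the dashed line marks the 12-month level. Lysosomal genes centre at 86.8% and reactive astrocyte genes at 49.7%.

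The same interval was examined in WT cortex. Between 3 and 12 months edgeR called 1 WT gene (0.00464%), the pseudogene Nlrp5-ps, which was at 0.693 and 0.641 CPM at 3 months and 3.35 and 2.77 CPM at 12 months, and which also rose in 5XFAD (2.29-fold). At an unadjusted p under 0.05 there were 1256 WT genes (5.83%), and DESeq2 called 27. The genes that rose in 5XFAD had a median log2 fold change of 0.11 in WT, and 241 of the 355 were positive there, beside 10309 of all 21555 genes. Itgax was among those higher at 12 months in WT, at 0.166 and 0.0867 CPM and then 0.487 and 0.557 CPM, a log2 fold change of 2.05 ± 0.75 (SE) beside 4.10 ± 0.55 in 5XFAD, with an edgeR adjusted p of 0.475 for the difference. C4b was at 18.7 and 14.3 CPM in WT at 3 months and at 28.9 and 36.9 CPM at 12 months, with a log2 fold change of 1.00 ± 0.45 (SE), beside 4.38 ± 0.50 in 5XFAD. Gfap was at 85.7 and 72.2 CPM and then at 87.5 and 84.7 CPM in WT, and Cd74 at 3.42 and 3.26 and then at 4.04 and 3.97 CPM. Adam19 had log2 fold changes of -0.43 ± 0.10 in WT and -0.60 ± 0.09 in 5XFAD.

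The age change was then tested for a difference between the genotypes. EdgeR called 0 of 21555 genes for the difference, with 2240 (10.4%) at an unadjusted p under 0.05, and DESeq2 called 225, of which 200 were positive (5XFAD minus WT) and 25 negative. With the replicate number as a block, edgeR called 20 for the difference, all higher, Rida, Gfap and C4b among them (adjusted p 0.0364, 0.0472 and 0.0463). Of the 225 of DESeq2, 136 were among the 407 genes edgeR called in 5XFAD. By edgeR the smallest adjusted p was 0.0712, for Rida, whose WT libraries were at 24.0 and 20.1 CPM and 19.4 and 21.6 CPM. The difference of the log2 fold changes, 5XFAD minus WT, was 1.13 ± 0.15 (SE) for Rida, 3.15 ± 0.51 for Gfap, 3.38 ± 0.63 for C4b and 1.33 ± 0.28 for Tap1. For Clec7a it was 1.06 ± 0.95, with WT levels at 0.123 and 0.0289 CPM and 0.328 and 0.365 CPM. Both WT libraries at 12 months were female and 1 of the 2 at 3 months was male and rich in Drd2. With a term for sex in the model edgeR called 0 genes for the difference.

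**Figure D5:**
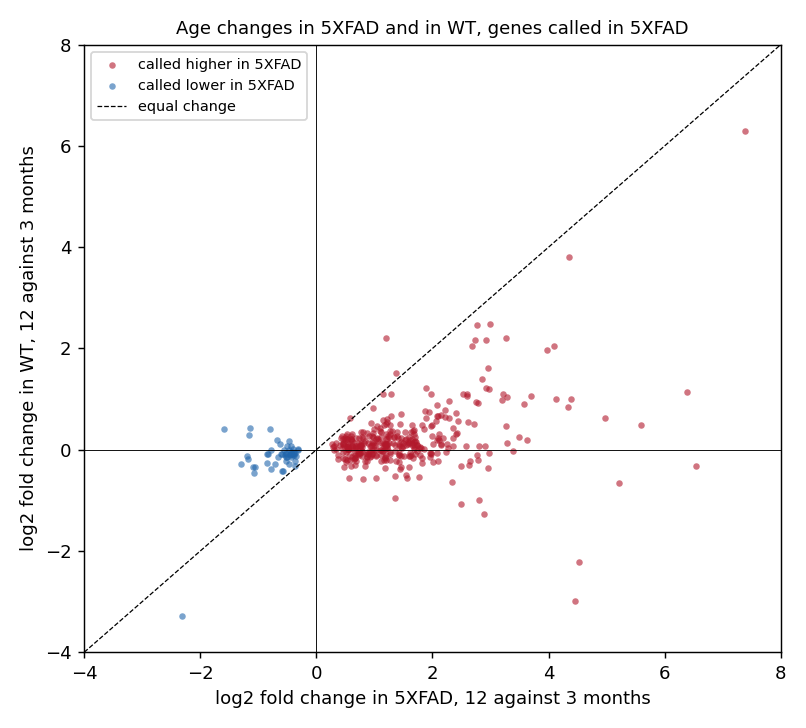
Log2 fold change from 3 to 12 months in WT (vertical) against that in 5XFAD (horizontal) for the 407 genes that edgeR called in 5XFAD, red for higher and blue for lower, with a dashed line of equal change. Most red points lie near 0 on the WT axis, with a WT median of 0.11; genes were chosen on the horizontal axis.

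The 12-month libraries were not equal in the genes that rose. Replicate 1, the male library, was the lowest of the 3 for 292 of the 355 genes (82.3%), beside 37.2% of all genes tested, and the highest for 27 of the 52 that fell (51.9%), beside 31.6%. It was lowest for 25 of 27 disease-associated microglia genes and 20 of 20 myelin genes, and for 6 of 17 antigen presentation and 11 of 30 interferon-stimulated genes. Summed over the disease-associated microglia list, the 12-month libraries were at 6213, 7917 and 8875 CPM and the 3-month libraries at 3928 and 4437 CPM. At 6 months the sum was 4943, 6241 and 7613 CPM, so replicate 1, the 1 male 5XFAD library of each age, was the lowest of its age for this list at 3, 6 and 12 months. In WT at 3 months the male library, which is rich in Drd2, was at 3940 CPM and the female at 3740 CPM. In WT at 6 months the male library was at 3784 CPM, below the females at 3902 and 4238 CPM. An effect of sex itself was not tested. With a term for sex, edgeR called 632 genes, 396 of the 407 among them. Without replicate 1, edgeR called higher 22 of the disease-associated microglia genes, 19 lysosomal, 7 complement, 11 antigen presentation, 9 interferon-stimulated and 7 reactive astrocyte genes. This fit called 694 of all 21503 genes higher. By DESeq2 with all libraries the counts were 25, 22, 9, 15, 24 and 12, beside 1073 of all 21555 genes. Without the libraries rich in neighbouring tissue the edgeR counts were 20, 16, 7, 12, 15 and 6, beside 295 of all 21859 genes. Without 12-month replicate 2, or with either 3-month library left out, each of the 6 counts was 0, and without 12-month replicate 3 they were 0, 0, 1, 3, 0 and 1.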

How the data were processed

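The authors deposited a table of raw read counts per Ensembl gene for 15 libraries, made from paired reads of ribosome-depleted total RNA, per the labels; the labels' molecule field instead names polyA RNA. The submitters' processing notes name CASAVA, STAR, BWA and the build mm9; the counter, annotation and use of strand are not given in the sources used here, and no coordinates from the counts are printed. Symbols came from a GRCm38 annotation by Ensembl ID and matched 32919 of 37991 genes, which hold 98.5% of counts.

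Genes were filtered with filterByExpr (minimum count 10, minimum total 15), leaving 21555, and all 15 libraries were fitted together by group with edgeR 4.0.16 in R 4.3.3, using TMM scaling, a robust quasi-likelihood fit and a prior count of 0.125. Contrasts were 12 minus 3 months in 5XFAD, the same in WT, and their difference. Adjusted p-values are Benjamini-Hochberg over all genes tested, with no fold minimum. Standard errors were derived from the fold change and the F statistic and are approximate. The share of change at 6 months used log2 of the group mean CPM plus 0.1. On simulated counts 80% of genes changed 2-fold and 93% of those changed 4-fold were recovered, with 11 false calls, over 21160 genes, for the 5XFAD contrast. The changed genes averaged at least 1 CPM, and all other genes had equal means in every group. Counts were drawn without differences of sex or dissection between libraries, so these rates need not hold for the real libraries.

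Named genes were the 15 largest increases and 15 largest decreases among called genes with a symbol, no overlap and a mean of at least 1 CPM, up to 4 members of each of 38 lists by smallest p, and the largest WT and difference changes; any other gene was picked after its values were seen. The comparison and the lists were chosen with earlier results of these data known. Sex was read from Xist and Y-linked genes at a limit of 10 CPM, and libraries rich in neighbouring tissue from limits of 100 CPM for Ttr and 30 CPM for Drd2. Some members of the lists are not reported here by name. Alternatives included DESeq2 1.42.0, other scalings and filters, a sex term, a replicate block and leaving out each library.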

Additional observations from a re-analysis of the deposited data

How the results depend on the processing

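The count of 407 genes called in 5XFAD (355 higher, 52 lower) depended on the tool and on single libraries. DESeq2 called 1461 (1073 higher, 388 lower), a term for sex gave 632 (509 higher, 123 lower), the model of the 5 libraries alone 483 (449 higher, 34 lower; 270 of the 407) and the model of the 8 5XFAD libraries alone 0 (0 higher, 0 lower; 3056 genes at an unadjusted p under 0.05). Leaving out 1 library at a time gave 0 to 833 called genes, 0 to 694 higher and 0 to 139 lower. Other scalings, filters and the fit without libraries rich in neighbouring tissue stayed within 1.5 times the count of 407, although 243 of the 407 were still called without those libraries and 314 with no low-count filter. Of the 90 named genes that were called, 0 were called under all 15 alternatives. The groups of the 407 genes do not overlap, so their direction could not turn when a library was left out. In WT, DESeq2 called 27 genes (10 higher, 17 lower). EdgeR called 0 in WT under the sex term and without the libraries rich in neighbouring tissue, and 0 to 0 with each library left out (0 higher). For the difference, against 0 by edgeR, DESeq2 called 225 (200 higher, 25 lower), and edgeR 1 with no low-count filter and 1 without the libraries rich in neighbouring tissue, all higher. Leaving out 1 library gave 0 to 9 (0 to 9 higher). The cause of these moves was not tested. Library totals ran from 105.2 M to 226.7 M, and the number of libraries, 2 against 3, limits the precision.

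With the replicate number as a block (replicate block), edgeR called 445 genes in 5XFAD (377 higher, 68 lower), 330 of the 407 among them, 0 in WT (0 higher) and 20 for the difference (20 higher). The correlations of same-numbered libraries over 15041 genes were 0.19 for number 1 and -0.21 for number 2. With 2 libraries at 3 months their deviations mirror each other, so these are not separate checks and cannot decide on a pairing. None was assumed in the main fit. Every library numbered 1 read as male and all others as female, so the block also takes in sex.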
